A study of Mus musculus with 12 samples.

Results

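The lncRNA ephemeron (Eprn, listed in the deposited tables as D630045M09Rik) and 9 protein-coding genes of the Lin28/let-7 axis were followed in mouse embryonic stem cells (ESCs) with less or more Yes-associated protein (YAP). These 10 of 24480 genes were taken by name: Eprn, the RNA-binding proteins Lin28a and Lin28b, the precursor-tailing enzymes Zcchc11 and Zcchc6, the exonuclease Dis3l2, and the let-7 target genes Hmga2, Igf2bp1, Igf2bp3 and Trim71. No cutoff on a measured value was applied to choose them, although results of these data were known when the list was drawn up. The study had picked ephemeron from these same libraries, among genes that were lower with less YAP and higher with more. Its directions and calls here are therefore not independent of that choice. All groups used E14Tg2a, a feeder-free ESC line kept in serum and leukemia inhibitory factor, transfected transiently with a lipid reagent. YAP KD cells received Stealth siRNAs against YAP and CTR KD cells a scrambled siRNA. YAP OE cells received a plasmid with the mouse YAP coding sequence behind the ubiquitous CAG promoter, and CTR OE cells a plasmid that encodes GFP according to the labels and is an empty vector according to the methods of the study. Total RNA of 3 independent samples per group, 12 in all, was sequenced.

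let-7 microRNAs repress mRNAs that carry a match to their seed, the stretch of bases that pairs with the target. In ESCs the let-7 precursors are transcribed but held back by Lin28 proteins, which bind the loop of the precursor. Lin28a recruits the uridylyltransferases Zcchc11 (TUT4) and Zcchc6 (TUT7), and the oligouridine tail they add is read by Dis3l2, which degrades the precursor. Several genes that keep early cells proliferating, Lin28a and Lin28b among them, are themselves let-7 targets, so the axis closes on itself. Ephemeron is known as a lncRNA that rises when ESCs leave naive pluripotency and acts upstream of Lin28a.

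The sequences at the centre of this axis show what links let-7 to its targets. The mature 5p RNAs of the mouse let-7 family in RefSeq are printed with bases 2 to 8, the seed, in capitals, because it is this stretch that decides which mRNAs are targets:
mmu-let-7a-5p: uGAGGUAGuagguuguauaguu
mmu-let-7b-5p: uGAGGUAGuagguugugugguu
mmu-let-7c-5p: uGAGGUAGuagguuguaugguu
mmu-let-7d-5p: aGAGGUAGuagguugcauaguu
mmu-let-7e-5p: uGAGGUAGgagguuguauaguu
mmu-let-7f-5p: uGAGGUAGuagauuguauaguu
mmu-let-7g-5p: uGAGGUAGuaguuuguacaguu
mmu-let-7i-5p: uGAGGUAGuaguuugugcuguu
mmu-miR-98-5p: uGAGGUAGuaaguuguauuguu
All 9 share 1 seed, and differ from each other in the bases after it, mmu-let-7d-5p also in the base before it.

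A pair of precursor hairpins is printed to show the feature that Lin28 proteins are known to read, the tetramer GGAG near the 3′ end of the loop, in capitals (RefSeq, GRCm38.p6, which is mm10):
Mirlet7g, chr9:106178840-106178927, plus strand: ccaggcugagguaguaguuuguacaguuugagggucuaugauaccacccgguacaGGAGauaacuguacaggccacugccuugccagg
Mir98, chrX:151913214-151913321, plus strand: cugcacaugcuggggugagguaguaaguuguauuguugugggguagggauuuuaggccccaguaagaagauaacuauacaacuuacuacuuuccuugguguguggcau
GGAG stood in the loop of 9 of the 12 let-7 hairpins, and was not in that of Mirlet7b, Mirlet7c-2 or Mir98. The tables list all 12 hairpin genes, which are 83 to 108 bases long, but with an effective length of 0 in every library, and a single count was assigned among them, to Mirlet7f-1. The libraries therefore carry no reading of let-7 itself, and only the genes before and after it in the axis were measured.

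The seed pairs with CTACCTC in an mRNA. In the longest 3′UTR that GENCODE vM1 gives each gene, this heptamer was found in 6 of the 9 coding genes of the axis (66.7%), against 8.81% of 19915 mouse genes and 15.4% of the 9194 genes with a 3′UTR of at least 1000 bases. Only the strand of the mRNA was searched. These genes were chosen partly as known let-7 targets, so the share describes the choice and is not a result. The match lies in both Lin28 genes and in each of the 4 target genes, and one site of each is printed with the octamer in capitals, to show the sequence that links each gene to the seed:
Hmga2, bases 58 to 65 of the 3′UTR: ccgacattcaatttCTACCTCAgc
Lin28b, bases 36 to 43: cccgggcgggaagtCTACCTCAtg
Lin28a, bases 909 to 916: cacagcctgttgaaCTACCTCAtt
Igf2bp1, bases 1715 to 1722: ctgtgcgaagtaaaCTACCTCAag
Igf2bp3, bases 548 to 555: gcatttttactcaaCTACCTCAgg
Trim71, bases 166 to 173: acattgcctaagtcCTACCTCAgc
Hmga2, Igf2bp1 and Lin28b had 4 heptamers each, Lin28a and Trim71 had 2, and Igf2bp3 had 1. At least 2 stood in 5 of the 9 genes, against 1.01% of all genes. The heptamer was not in the 3′UTRs of Zcchc11, Zcchc6 and Dis3l2, the shortest of which has 503 bases.

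The 12 libraries held 42926256 to 57240703 expected counts, which are reads assigned to genes with reads of several genes divided by probability. Levels are given as CPM, counts scaled to the library total and by TMM factors within each experiment, so that CPM of the knockdown and of the overexpression libraries are not on one scale. Fold changes come from edgeR's quasi-likelihood test, 2-sided, and a gene was called at a Benjamini-Hochberg adjusted p under 0.05 over all genes tested. The targeted gene, Yap1, was lower in YAP KD by a log2 fold change of -1.14 and higher in YAP OE by 0.97, with SEs of 0.0568 and 0.0470. The 8 ESC markers lay between 112 and 2047 CPM in the group means. None was called by edgeR's quasi-likelihood test, where 5.49% of all genes were called in YAP KD and 2.13% in YAP OE. An unadjusted p under 0.05 was reached by 4 in YAP KD and 1 in YAP OE, all lower, against 19.6% and 13.1% of all genes. The highest of 17 markers of other cell types was 17.5 CPM. Of those 17 none was called in YAP KD, where some, Cdx2 and Gata3 among them, had too few counts to be tested. In YAP OE these 2 trophoblast genes were called higher, as were 1.66% of all genes tested. In bulk RNA, fewer cells of a type and less RNA per cell cannot be told apart.

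Ephemeron fell when YAP was knocked down and rose when YAP was overexpressed. In CTR KD it stood at 22.8, 22.3 and 23.2 CPM, and in YAP KD at 11.4, 10.6 and 11.8 CPM. In CTR OE it stood at 21.5, 23.0 and 22.8 CPM, and in YAP OE at 29.8, 27.3 and 28.3 CPM. The groups did not overlap in either experiment, and replicates lay close together. The knockdown left 0.496 times the control level (edgeR adjusted p = 6.683655e-05, log2 fold change -1.01 with SE 0.0565). The overexpression effect was 0.34 (SE 0.0494) on the same log2 scale (edgeR adjusted p = 0.001236468), an increase of 26.9% with a 95% interval from 18.0% to 36.5%. The 2 effects differed by 1.36 on the log2 scale (SE 0.0723, edgeR adjusted p = 4.911738e-08). Both calls were kept when any 1 library of the experiment was left out. In limma fits on TPM the knockdown call was lost only with a pseudocount of 0.1 (adjusted p = 0.0515), where 5 of 19206 genes were called. The overexpression call was lost in all 3 TPM fits (adjusted p from 0.232 to 0.659), which called 15 to 79 genes.

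The fall was larger than the rise. The mean of the log2 effects of YAP KD and YAP OE was -0.33 (SE 0.0361, edgeR adjusted p = 0.0003966264), where opposite effects of equal size would give 0. This contrast was added after the values had been seen. Yap1 mRNA moved by amounts closer to each other, with a mean effect of -0.09 (SE 0.0387, edgeR adjusted p = 0.38). Its 95% interval, from -0.173 to -0.0080, also lay below 0 (edgeR unadjusted p = 0.0336). Ephemeron and Yap1 were not tested against each other.

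**Figure D1:**
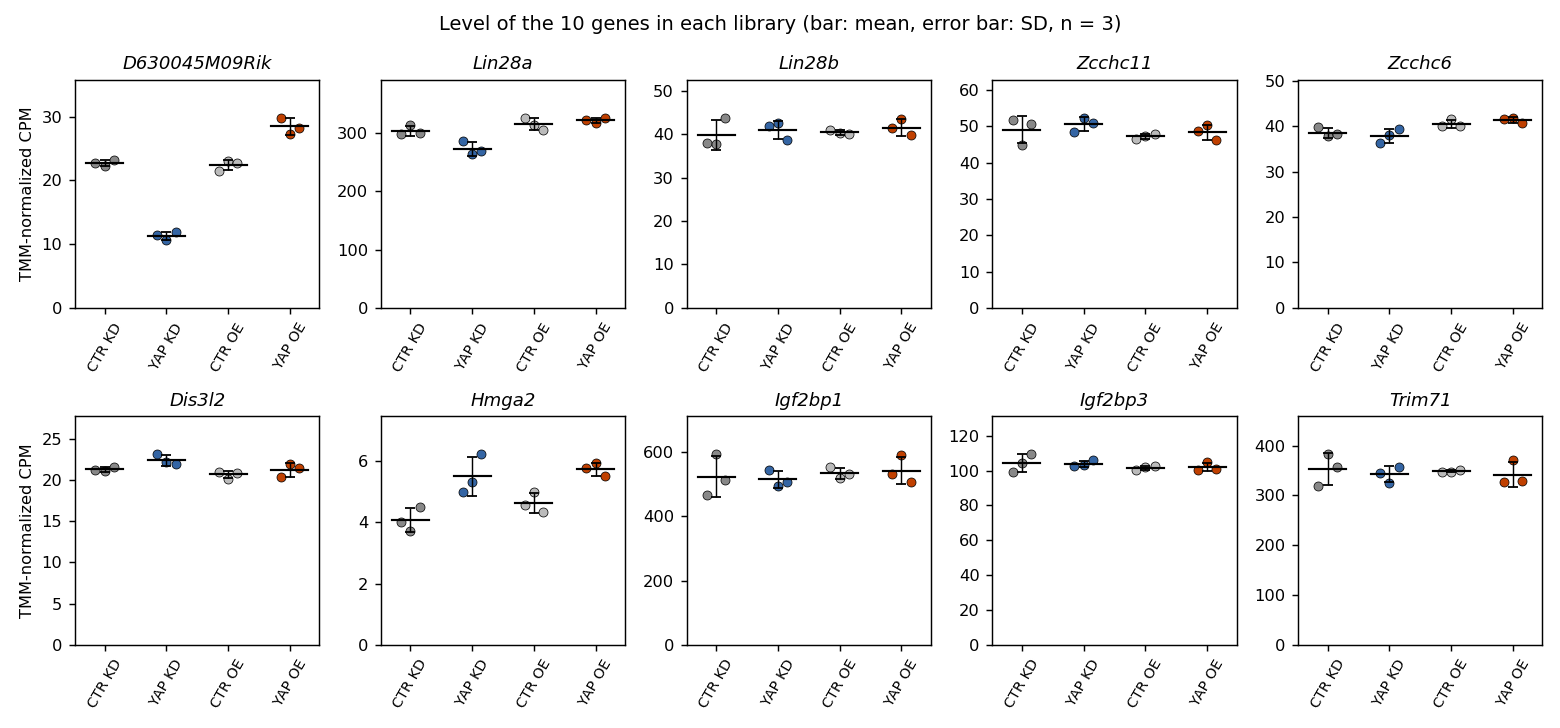
TMM-normalized CPM (vertical axes, from 0) of the 10 genes in each of the 12 libraries; points are libraries, horizontal bars group means and error bars SDs (n = 3). D630045M09Rik is lower in all 3 YAP KD libraries (10.6 to 11.8 CPM) and higher in all 3 YAP OE libraries (27.3 to 29.8 CPM) than in their controls, and Hmga2 is higher in both.

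Ephemeron is transcribed from the minus strand of chr13:73344665-73347384 (mm10) as a single annotated transcript of 1306 bases. Its promoter is printed because its level is the one that moved with YAP; the 50 bases from the transcription start are in capitals (RefSeq, GRCm38.p6, chr13:73347335-73347634, minus strand):
D630045M09Rik: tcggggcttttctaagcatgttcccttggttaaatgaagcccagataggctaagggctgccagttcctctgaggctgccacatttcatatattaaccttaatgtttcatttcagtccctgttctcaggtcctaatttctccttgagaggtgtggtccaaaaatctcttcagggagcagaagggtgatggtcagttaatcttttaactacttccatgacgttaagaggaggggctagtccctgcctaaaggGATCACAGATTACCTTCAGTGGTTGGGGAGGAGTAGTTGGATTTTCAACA
YAP reaches DNA through TEAD factors, whose core motif GGAATG was searched on both strands (CATTCC on the other). It was in 14.7% of 32851 mouse promoter windows of this size and not in that of ephemeron. Among the 9 genes of the axis that had a window, 1 held it, Zcchc11. A motif outside these windows, in an intron for example, was not searched for. The study reports YAP binding in an intron of ephemeron by chromatin immunoprecipitation, at a relaxed peak threshold and again by PCR. It describes this binding as dependent on TEAD.

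None of the genes beside ephemeron was called. The closest, Mrpl36, lies 12.5 kb away, and of the 8 nearest genes, 4 on each side, 6 could be tested. The share called over all genes was 5.49% in YAP KD and 2.13% in YAP OE. Of the neighbours 0 were called by edgeR, DESeq2 or limma-voom in either experiment, and 0 reached an unadjusted p under 0.05. Their log2 fold changes ran from -0.06 to 0.12 in YAP KD and from -0.06 to 0.02 in YAP OE. Ndufs6, a subunit of respiratory complex I, had -0.06 (SE 0.0476) and -0.03 (SE 0.0458). Clptm1l had 0.02 (SE 0.0418) and 0.02 (SE 0.0440).

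Across the 12 libraries, scaled together, the gene most like ephemeron among 9913 with at least 5 CPM on average was Nefl, which encodes the light neurofilament chain (Pearson's r = 0.992 of log2 CPM). It was followed by Tek, the angiopoietin receptor (r = 0.991), Scrn1 (0.986), Inadl, a polarity scaffold (0.982) and Kbtbd11 (0.982). Yap1 was in rank 44 (r = 0.952) and Lin28a in rank 191 (r = 0.899). These libraries form 4 groups with a common treatment, so the correlations describe a shared pattern over groups and were not tested. Within groups, the deviations of ephemeron and Lin28a from their group means had an r of -0.04.

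Lin28a, the Lin28 protein that predominates in ESCs and acts in the cytoplasm, had lower levels in the 3 YAP KD libraries, without passing the threshold. Its levels were 298, 314 and 301 CPM in CTR KD and 286, 264 and 269 CPM in YAP KD. In CTR OE they were 327, 314 and 306 CPM, and in YAP OE 323, 318 and 326 CPM. The knockdown groups did not overlap, whereas the overexpression groups did. The log2 fold change in YAP KD was -0.16 (SE 0.0446), a difference of -10.3% with a 95% interval from -16.3% to -3.88%. It did not pass the threshold (unadjusted p = 0.0058, edgeR adjusted p = 0.0789) and was called in the fit over all 12 libraries (adjusted p = 0.0261). In YAP OE it was 0.03 (SE 0.0410, edgeR adjusted p = 0.838), with an interval from -3.93% to 8.44%.

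Of the 8 ESC markers, 5 had lower levels in YAP KD, as Lin28a did. The others, Pou5f1, Sox2 and Tdgf1, had log2 fold changes of 0.07, 0.03 and 0.02. The summed level of the 8 markers was 5878, 6066 and 5970 CPM in CTR KD and 5873, 5612 and 5568 CPM in YAP KD, without overlap. Among all genes taken singly, 12.7% were lower in YAP KD without overlap. In CTR OE it was 5900, 5900 and 5815 CPM and in YAP OE 5821, 5686 and 6083 CPM, with overlap. The 4 markers at an unadjusted p under 0.05 in YAP KD were Nanog, Zfp42, Dppa5a and Esrrb, with log2 fold changes from -0.16 to -0.13. Such a p was reached by 19.6% of all genes there. The fit over all 12 libraries called 1261 of 15049 genes in YAP KD, against 802 of 14606 in the fit of that experiment alone. Besides Lin28a it called the pluripotency factor Nanog (-0.13, edgeR adjusted p = 0.0426) and Zfp42 (-0.13, edgeR adjusted p = 0.0465). Both were named after their values were seen. Their part in the result was not tested.

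The difference between these effects of Lin28a was 0.19 (SE 0.0584, edgeR adjusted p = 0.0600). It passed the threshold with upper-quartile factors (0.20, adjusted p = 0.0347), total counts, a 1 CPM filter or limma-voom, and without YAP KD replicate 1 (0.22, adjusted p = 0.0304).

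Lin28b, the paralog that carries a nuclear localization signal, ran at 38.0, 37.7 and 43.8 CPM in CTR KD and 42.0, 42.5 and 38.6 CPM in YAP KD. In CTR OE it was 41.0, 40.3 and 40.0 CPM and in YAP OE 41.3, 43.6 and 39.7 CPM. Both pairs of groups overlapped. Its log2 fold changes were 0.04 (SE 0.0657) and 0.04 (SE 0.0438). Per kilobase of effective length, Lin28a exceeded Lin28b 12.1 times in CTR KD, 10.5 times in YAP KD, 12.4 times in CTR OE and 12.3 times in YAP OE.

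None of the 3 tailing and decay enzymes was called. Zcchc11, the uridylyltransferase TUT4, had 51.8, 44.8 and 50.6 CPM in CTR KD and 48.5, 52.3 and 50.8 CPM in YAP KD, with a log2 ratio of 0.04 (SE 0.0592). Zcchc6, its relative TUT7, had 39.8, 37.7 and 38.2 CPM and then 36.3, 38.1 and 39.4 CPM, with a log2 ratio of -0.02 (SE 0.0467). Neither pair of groups was separated. Its expected counts were not whole in all 12 libraries, as happens where RSEM divides reads between genes, so its level is less certain.

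Dis3l2, the 3′ exonuclease that degrades oligouridylated precursors, stood at 21.2, 21.1 and 21.7 CPM in CTR KD and 23.1, 22.2 and 21.9 CPM in YAP KD. The knockdown groups did not overlap, but the shift was small, 0.07 in log2 (edgeR adjusted p = 0.456, SE 0.0468). In YAP OE the 3 enzymes had log2 fold changes of 0.03 (SE 0.0422) for Zcchc11, 0.03 (SE 0.0401) for Zcchc6 and 0.04 (SE 0.0490) for Dis3l2. A list of 12 other terminal nucleotidyltransferases and 3′ or 5′ exonucleases had 0 genes called by edgeR, DESeq2 or limma-voom in either experiment, where 5.49% and 2.13% of all genes were called by edgeR. It had 0 at an unadjusted p under 0.05, against 19.6% of all genes in YAP KD and 13.1% in YAP OE. Its most abundant genes were Xrn2, a nuclear 5′ exonuclease, at -0.01 (SE 0.0416) and 0.01 (SE 0.0382), and Dis3, the catalytic exosome subunit, at 0.07 (SE 0.0451) and -0.04 (SE 0.0401).

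**Figure D2:**
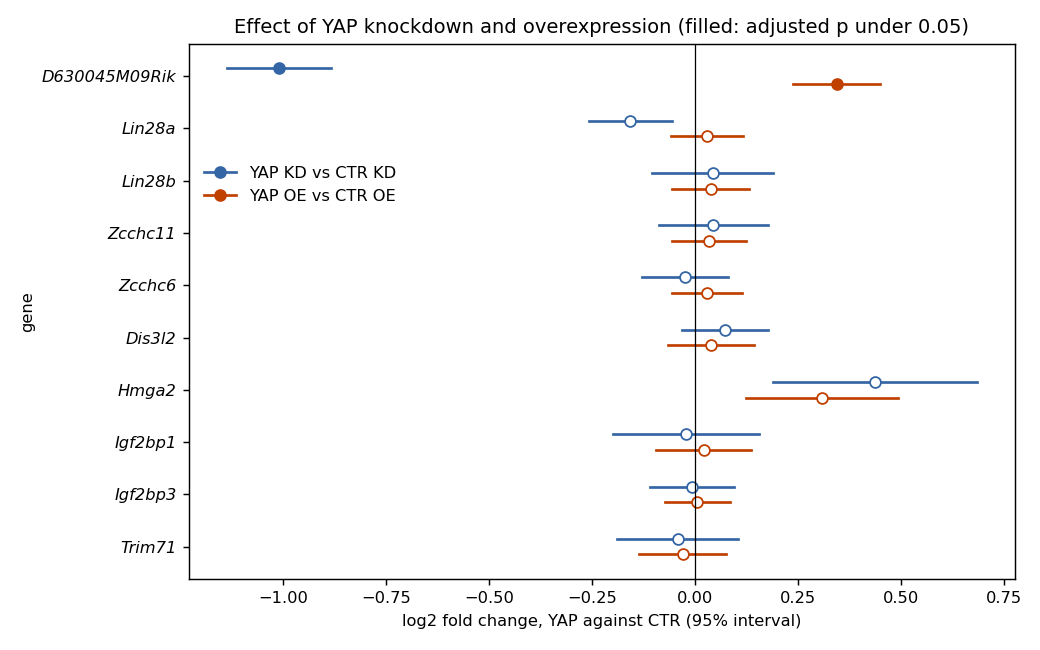
Log2 fold changes (points) with 95% intervals (lines) of the 10 genes, YAP KD against CTR KD in blue and YAP OE against CTR OE in orange; filled points have an edgeR adjusted p under 0.05. D630045M09Rik is called in both directions (-1.01 and 0.34), Hmga2 lies to the right of 0 in both experiments (0.44 and 0.31), and the intervals of 7 genes include 0 in both.

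Hmga2, a chromatin architectural protein and the classical let-7 target, had higher levels with less and with more YAP, although neither difference passed the threshold by itself. It stood at 4.01, 3.74 and 4.52 CPM in CTR KD and 4.98, 5.31 and 6.23 CPM in YAP KD. In CTR OE it stood at 4.58, 4.99 and 4.34 CPM, and in YAP OE at 5.78, 5.94 and 5.51 CPM. The YAP libraries exceeded every control library of their experiment in both cases, which held for 0.847% of the 14521 genes tested in both experiments. On the log2 scale the knockdown effect was 0.44 (SE 0.111) and the overexpression effect 0.31 (SE 0.0863). Neither passed the threshold, with edgeR adjusted p = 0.0516 and 0.0920.

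The mean of both effects of Hmga2 was 0.37 on the log2 scale (95% interval 0.22 to 0.52, SE 0.0688, edgeR adjusted p = 0.0118), and it was called in every alternative fit of this contrast and without any 1 library. This contrast, too, was chosen after the values had been seen. Over all genes it called 1.22% of 15049, that is 0.784% higher and 0.432% lower. The 2 effects of Hmga2 differed by -0.13 (SE 0.138, edgeR adjusted p = 0.649). Its expected counts were low, from 183 to 334, and were not whole in 7 libraries. In YAP KD Hmga2 was called in 5 alternative fits (no filter beyond 1 count, effective-length offset, all 12 libraries, DESeq2, exact test), and in YAP OE in 2 (no filter, exact test).

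Igf2bp1, an oncofetal mRNA-binding protein, was abundant and variable, at 466, 593 and 513 CPM in CTR KD and 546, 495 and 508 CPM in YAP KD. Igf2bp3, its paralog, was steadier, with 99.3, 105 and 109 CPM in CTR KD and 102, 103 and 106 CPM in YAP KD. Trim71, a let-7 target that represses mRNAs, had 318, 382 and 357 CPM in CTR KD and 346, 325 and 356 CPM in YAP KD. In none of the 3 were the groups separated.

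Their log2 fold changes in YAP KD were -0.02 (SE 0.0791) for Igf2bp1, -0.01 (SE 0.0451) for Igf2bp3 and -0.04 (SE 0.0657) for Trim71. In YAP OE they were 0.02 (SE 0.0540), 0.01 (SE 0.0370) and -0.03 (SE 0.0497). CTR KD replicate 1 was lowest and CTR KD replicate 2 highest for both Igf2bp1 and Trim71. The deviations of these 2 genes from their group means had an r of 0.87 over the 12 libraries. That is the closest pair among the 10 genes, given as a description that was not tested.

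Counted over the whole axis, 1 of 10 genes was called in YAP KD (ephemeron, lower) and 1 of 10 in YAP OE (ephemeron, higher), where 5.49% and 2.13% of all genes tested were called, that is 2.78% lower in YAP KD and 1.66% higher and 0.473% lower in YAP OE. The study had picked ephemeron for these directions in the same libraries. The groups did not overlap for 4 of 10 genes in YAP KD against 25.9% of all genes. Of the 4, Hmga2 and Dis3l2 were higher (13.2% of all genes) and ephemeron and Lin28a lower (12.7%). In YAP OE this held for 2 of 10, ephemeron and Hmga2, both higher, against 18.1% of all genes, with 10.3% higher and 7.80% lower. The median log2 fold change was -0.01 in YAP KD and 0.03 in YAP OE, against 0.0058 and -0.0025 for all genes. For the 7 genes other than ephemeron, Lin28a and Hmga2, the 95% intervals together ran from -12.9% to 14.1% in YAP KD and from -9.02% to 10.4% in YAP OE. Changes larger than these bounds are outside the intervals of every one of the 7. The difference of the effects was called for 1 of 10, ephemeron, against 8.80% of 15049 genes, 5.24% in its direction.

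**Figure D3:**
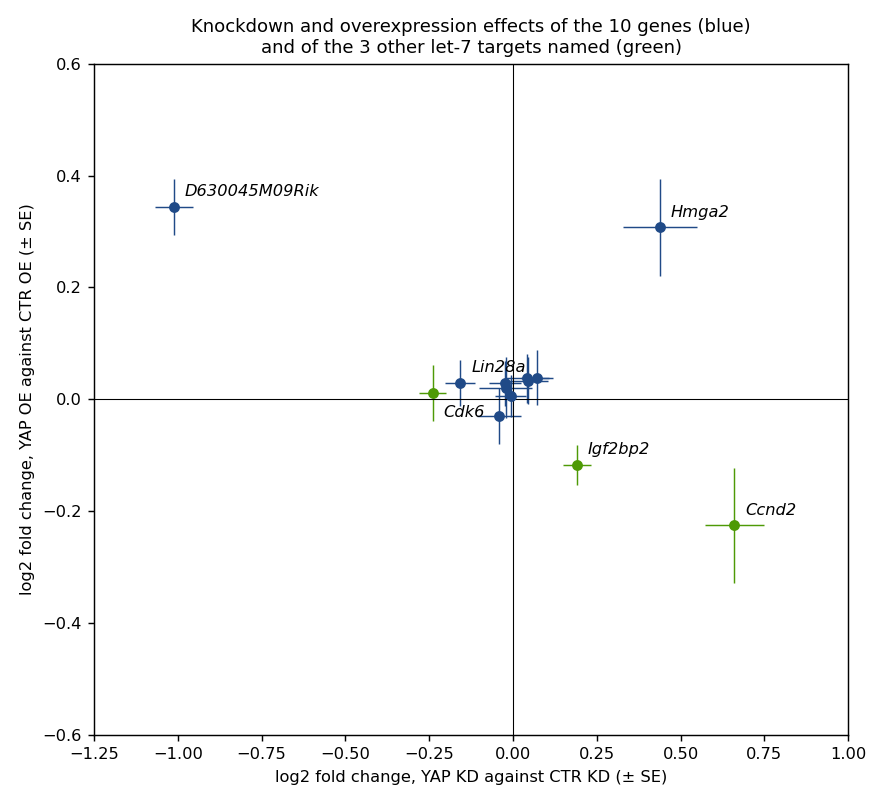
Log2 fold change in YAP KD (horizontal) against that in YAP OE (vertical) with SEs as error bars, for the 10 genes of the axis in blue and 3 further let-7 targets called in YAP KD in green. D630045M09Rik lies at upper left (-1.01, 0.34) and Ccnd2 at lower right (0.66, -0.23), while Hmga2 is at upper right (0.44, 0.31).

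The 10 genes were ordered by CPM per kilobase within each group. In CTR KD Lin28a led with 92.1 ± 2.68 (SD, n = 3), followed by Trim71 with 70.1 ± 6.44 and Igf2bp1 with 63.9 ± 7.88, whose ranges overlapped. Igf2bp3 had 25.0 ± 1.18 and ephemeron 20.1 ± 0.364. Zcchc11, Lin28b, Dis3l2 and Zcchc6 followed between 8.35 and 7.17, each overlapping its neighbour in this order, and Hmga2 was lowest at 1.02 ± 0.0992. Ephemeron fell to 10.01 ± 0.504 in YAP KD, still above Zcchc11 at 8.60 ± 0.321, and in YAP OE its 25.2 ± 1.29 overlapped Igf2bp3 at 24.5 ± 0.526, which it exceeded in the mean.

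**Figure D4:**
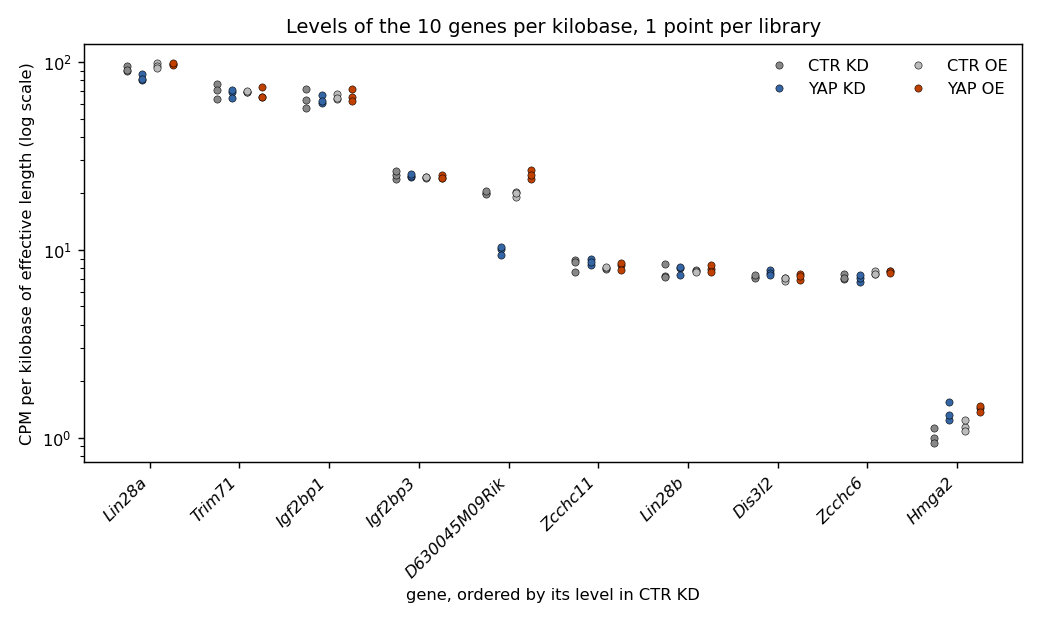
CPM per kilobase of effective length (vertical, log scale) of the 10 genes, ordered by their level in CTR KD; each point is 1 library, coloured by group. Lin28a is highest at about 92.1 and Hmga2 lowest at about 1.02 in CTR KD, and D630045M09Rik stands at about 10.01 in YAP KD and 25.2 in YAP OE; values were scaled within each experiment.

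A list of 19 further let-7 targets was read beside the axis. In YAP KD 2 were higher and 1 lower (percent called over all genes, 2.71 higher and 2.78 lower). The 2 were Ccnd2, a D-type cyclin, at 0.66 (SE 0.0877, edgeR adjusted p = 0.00304), and Igf2bp2, the third Igf2bp paralog, at 0.19 (SE 0.0411). Cdk6, the kinase partner of D-type cyclins, was lower at -0.24 (SE 0.0396). Ccnd2 rose from 3.42, 3.60 and 3.74 CPM to 5.24, 5.97 and 5.78 CPM, and kept its call without any 1 library. In limma fits on log2(TPM + 1) and log2(TPM + 0.1) Ccnd2 was not called (0.19 and 0.53), and the other 2 were not called in any TPM fit. The other 2 calls were lost in some fits without 1 library. That of Cdk6 was lost without CTR KD replicate 3 (-0.23) or YAP KD replicate 2 (-0.24). That of Igf2bp2 was lost without CTR KD replicate 1 (0.16), CTR KD replicate 3 (0.21), YAP KD replicate 1 (0.20), YAP KD replicate 2 (0.17) or YAP KD replicate 3 (0.19).

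In YAP OE 0 of the 19 targets were called by edgeR's quasi-likelihood test or limma-voom, where 2.13% of all genes were called by the former, and 4 had an unadjusted p under 0.05, against 13.1% of all genes. DESeq2 and the exact test called 1, the cyclin Ccnd1 (-0.14, edgeR adjusted p = 0.0728 in the quasi-likelihood test), which was named after its values were seen. The log2 fold changes there were -0.23 (SE 0.103) for Ccnd2, -0.12 (SE 0.0358) for Igf2bp2 and 0.01 (SE 0.0502) for Cdk6. The difference of the effects was called for these 3 genes, higher in Cdk6 and lower in the other 2, where 3.56% of all genes were called lower. Over the list, the median log2 fold change was -0.02 in YAP KD and -0.01 in YAP OE, near that of all genes. The heptamer CTACCTC was in the annotated 3′UTR of 8 of the 17 listed genes with such an annotation, Igf2bp2 among them, and not in those of Ccnd2 and Cdk6. These 3′UTRs had 4556 bases in Ccnd2, 2427 in Cdk6 and only 30 in Irs2. A site beyond the annotated end would be missed.

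Upstream of the targets, 0 of 15 genes of microRNA processing were called by edgeR, DESeq2 or limma-voom in either experiment, with 4 at an unadjusted p under 0.05 in YAP KD and 2 in YAP OE, against 19.6% and 13.1% of all genes. Its most abundant members were the helicase Ddx5, at -0.07 (SE 0.0393) and 0.0047 (SE 0.0438), and Hnrnpa1, which binds some precursors, at 0.07 (SE 0.0376) and -0.07 (SE 0.0438). The genes that host let-7g and miR-98, Wdr82 and Huwe1, were not called by any of these tools, and 0 of them had an unadjusted p under 0.05. Wdr82 had -0.03 (SE 0.0360) and -0.03 (SE 0.0396), and Huwe1 -0.04 (SE 0.0387) and -0.06 (SE 0.0541). Among 3 genes reported to be controlled by Trim71, 0 were called by edgeR's quasi-likelihood test, DESeq2 or limma-voom and 1, Egr1, by the exact test in YAP KD. An unadjusted p under 0.05 was reached by 2 in YAP KD, Egr1 and Cdkn1a, and by 0 in YAP OE, against the same 19.6% and 13.1%. Egr1, an immediate-early transcription factor named after its values were seen, had 1.62, 1.90 and 1.49 CPM in CTR KD and 2.15, 2.36 and 2.37 CPM in YAP KD, without overlap. Its log2 ratio was 0.46 (SE 0.130, edgeR adjusted p = 0.0787), and it was called by the exact test (edgeR adjusted p = 0.0244), over all 12 libraries (edgeR adjusted p = 0.0478) and without CTR KD replicate 2 (0.56, edgeR adjusted p = 0.0424). In YAP OE it was at -0.13 (SE 0.149). Ago2 was at -0.02 (SE 0.0604) and 0.01 (SE 0.0530) and Cdkn1a at -0.21 (SE 0.0912) and -0.01 (SE 0.0839).

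Among the 3 Dnmt3 genes, which set new DNA methylation, 1 was called in each experiment by edgeR's quasi-likelihood test, the cofactor Dnmt3l, where 5.49% of all genes were called in YAP KD and 2.13% in YAP OE. It had log2 fold changes of -0.59 (SE 0.0421) and 0.27 (SE 0.0452), so that its direction was that of ephemeron in both. The study had picked both genes from these libraries for being lower in YAP KD and higher in YAP OE. Their shared direction was therefore set by that choice and is not a separate result. The call in YAP OE was lost without CTR OE replicate 3 (0.25, edgeR adjusted p = 0.0523) and in the 3 TPM fits, and that in YAP KD in the 2 TPM fits without a minimum mean. Dnmt3b, a methyltransferase, had -0.06 (SE 0.0540) and -0.04 (SE 0.0527). Dnmt3a, the other methyltransferase, was named after its values were seen. It had 84.4, 91.5 and 83.0 CPM in CTR KD and 101, 96.2 and 95.4 CPM in YAP KD, without overlap, and was higher in YAP KD by 0.18 (SE 0.0485) without passing the threshold (edgeR adjusted p = 0.0715). It was called by the exact test (edgeR adjusted p = 0.0422), over all 12 libraries (edgeR adjusted p = 0.0325) and without CTR KD replicate 2 (0.22, edgeR adjusted p = 0.00927). In YAP OE Dnmt3a was at -0.10 (SE 0.0425, edgeR adjusted p = 0.319), and the difference of its effects was called (-0.27, SE 0.0665, edgeR adjusted p = 0.0176).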

How the data were processed

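RNA-Seq of 12 ESC libraries in 4 labelled groups of 3 was used. The authors mapped the reads with STAR to mm10 and quantified curated RefSeq transcripts with RSEM; versions and a strand setting are not given in the sources used here. The deposited expected counts are not normalized, and the deposited TPM are per effective length, summing to the same total in each library. The deposited FPKM were not used. The labels name edgeR as well.

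Expected counts were rounded and tested with edgeR 4.0.16 (filterByExpr, TMM factors, glmQLFit and glmQLFTest, 2-sided, Benjamini-Hochberg over all genes kept) within each experiment. The difference and the mean of both effects were fitted over the 12 libraries. Alternatives used other normalizations and filters, an effective-length offset, DESeq2 1.42.0, edgeR's exact test, limma 3.58.1 with voom or on log2(TPM + 1) and log2(TPM + 0.1), a replicate block, and each library left out. Fold changes on TPM depend on the pseudocount. The fits were checked on simulated counts.

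Members and gene lists were chosen with earlier results of these data known. Named list genes were those called in either experiment (at most 6), or, with fewer than 2 called, those of highest level up to 2; 1 gene of the let-7 target list is not reported here. Counts of any pair of replicates differed beyond Poisson error (chi-square over its degrees of freedom 3.54 to 25.7), which does not by itself show independent samples. Each library was treated as 1 sample because the study describes its samples as independent. At 42926256 to 57240703 expected counts per library, precision rests on the spread between 3 samples. Replicate numbers are not stated to pair samples. let-7 sequences and promoters come from RefSeq (GRCm38.p6), all 12 hairpins and 9 of 10 members matched. 3′UTRs come from GENCODE vM1, built on NCBIM37, of which no coordinates are given.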

Additional observations from a re-analysis of the deposited data

Results flagged for a closer look

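The following genes had an effect in YAP OE that differed from that in YAP KD in the test of the difference itself, over all 12 libraries and with edgeR adjusted p-values over all genes. For the targeted gene Yap1 the difference was 2.11 on the log2 scale (SE 0.0780, adjusted p = 5.338666e-10). For D630045M09Rik the difference was 1.36 on the log2 scale (SE 0.0723, adjusted p = 4.911738e-08), from -1.01 in YAP KD to 0.34 in YAP OE. For Dnmt3l it was 0.86 (SE 0.0606, adjusted p = 4.224012e-07). For Cdk6 it was 0.25 (SE 0.0674, adjusted p = 0.0286), with -0.24 in YAP KD and 0.01 in YAP OE.

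In the other genes the effect was higher in YAP KD. For Ccnd2 the difference was -0.88 (SE 0.123, adjusted p = 0.000342), for Igf2bp2 -0.31 (SE 0.0495, adjusted p = 0.00108) and for Dnmt3a -0.27 (SE 0.0665, adjusted p = 0.0176). The effects of these genes in YAP OE were not called, nor was that of Dnmt3a in YAP KD.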

How the results depend on the processing

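Whether the replicate numbers pair the samples cannot be decided from 3 libraries a group. Deviations from the group means of same-numbered libraries had an r of -0.26, -0.07 and -0.02 in the knockdown experiment. In the overexpression experiment the r was 0.02, 0.06 and 0.08. For libraries of different numbers it ran from -0.11 to 0.17 in the knockdown and from -0.066 to 0.008 in the overexpression experiment. With the number as a replicate block, the called members stayed at 1 in each experiment, and the calls over all genes went from 802 to 193 in YAP KD and from 316 to 280 in YAP OE. Cdk6 and Igf2bp2 lost their YAP KD call in that fit.

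Of the 10 genes, the number called in YAP KD was 2 without a filter beyond 1 count, with the effective-length offset, with DESeq2 and with the exact test. It was 3 over all 12 libraries and 0 on log2(TPM + 0.1), a fit that called 5 genes in all. In YAP OE it was 2 without that filter and with the exact test, and 0 in the 3 TPM fits, which called 15 to 79 genes in all. For the difference of the effects it was 2 with upper-quartile factors, total counts, the 1 CPM filter and limma-voom, and without YAP KD replicate 1 (1 to 2 over the fits without 1 library). Over all genes, fits without 1 library called 298 to 1019 in YAP KD and 154 to 327 in YAP OE.

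Directions turned only among genes that were not called. Without 1 library at a time, the log2 fold changes in YAP KD ran from -0.018 to 0.078 for Zcchc11, -0.055 to 0.0033 for Zcchc6, -0.11 to 0.076 for Igf2bp1, -0.048 to 0.026 for Igf2bp3, -0.12 to 0.020 for Trim71, -0.041 to 0.0065 for Xrn2, -0.084 to 0.041 for Ago2 and -0.0074 to 0.041 for Clptm1l. In YAP OE they ran from -0.044 to 0.064 for Igf2bp1, -0.014 to 0.018 for Igf2bp3, -0.094 to 0.0023 for Trim71, -0.037 to 0.064 for Cdk6, -0.0098 to 0.017 for Ddx5, -0.0094 to 0.015 for Xrn2, -0.032 to 0.076 for Ago2, -0.11 to 0.054 for Cdkn1a, -0.073 to 0.0092 for Dnmt3b, -0.076 to 0.015 for Ndufs6 and -0.024 to 0.055 for Clptm1l. Cdkn1a was at 0.0012 on log2(TPM + 1), with or without a minimum mean TPM of 1, and at 0.0015 on log2(TPM + 0.1). The cause was not tested.

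With 3 samples a group, the SE of a log2 fold change among the 10 genes was 0.0370 to 0.111, and it was largest for Hmga2, which had the fewest counts.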
